A study of Mus musculus with 15 samples.

Results

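The promoters described here are those of the mitochondrial respiratory chain. RefSeq identifiers of the deposited promoter annotation were mapped to gene symbols, and all rows were taken whose symbol begins with Nduf (complex I), with Uqcr (complex III) or with Cox4, Cox5, Cox6, Cox7 or Cox8 (complex IV), together with Sdha, Sdhb, Sdhc and Sdhd (complex II). This gave 79 promoters of 77 symbols among 25881 annotated transcription start sites (TSSs). A coverage score above 100, the authors' limit for high coverage, was reached by 64 of the 79 (13559 of all promoters), and the other 15 were kept apart. Ndufc2 (102.25), and Cox8b still closer, lie just above this limit and Ndufaf1 (98.25) lies just below it. Cox4nb shares the Cox4 prefix but is not a respiratory chain gene. The symbol table lists it as Emc8 and it was not included, although its TSS lies only 179 bp upstream of Cox4i1 on the opposite strand.

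Nucleosome positions had been measured by ChIP-MNase, in which large pieces of fixed chromatin are bound by an antibody and are then cut with micrococcal nuclease (MNase), so that DNA wrapped in nucleosomes remains. DCs, which are antigen-presenting immune cells and were here differentiated with GM-CSF from bone marrow progenitor lines, were left unstimulated or received LPS at 100 ng/ml for 1 h, and each state is 1 pooled set of 2 replicates with an antibody against the histone mark H3K4me1. 3T3 cells, an immortalised line of mouse fibroblasts, were unstimulated or received TNF-alpha at 5 ng/ml for 1 h, again as 1 pooled H3K4me1 set per state. Separate H3K4me1 libraries, 2 per group, come from control fibroblasts and from fibroblasts with stable shRNA knock-down of Brg1 and Brm (the ATPases of the BAF chromatin remodelling complex), each with and without the same TNF-alpha treatment. TNF-alpha-stimulated fibroblasts also gave 2 libraries for RNA polymerase II (pol-II) phosphorylated at serine 7 (S7P) and 1 library for serine 5 (S5P). The knock-down cells are a sorted, retrovirally transduced population, so residual Brg1 and Brm may remain, and no label describes a transduction of the control cells. The expression values deposited beside the promoters gave the DC marker Cd74 a level of 132.5 in DCs and 1.88 in fibroblasts. The fibroblast marker Col1a1 had 0.0869 in DCs and 556 in fibroblasts. The T cell marker Cd3e was at 0 in both. The study's methods name public datasets for gene expression in both cell types. These values, and the calls of active promoters made from them, therefore need not come from the cultures profiled here.

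The respiratory chain transfers electrons from NADH and succinate to oxygen and pumps protons across the inner mitochondrial membrane. Its subunits are needed in nearly every cell, and the promoters of the nuclear genes that encode them are known for CpG islands and for binding sites of NRF1, ETS-family factors such as GABP, YY1 and Sp1. Active promoters typically have a nucleosome-depleted region (NDR) directly upstream of the TSS, followed by a well-placed first nucleosome (+1).

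Grouped by symbol, 32 of the 79 promoters were counted as accessory subunits of complex I, 7 as its core subunits and 8 as its assembly factors. Complex II had 4, complex III had 8 and broadly expressed subunits of complex IV had 11. The accessory group takes in every other symbol that begins with Nduf except Ndufa4l2, among them Ndufa4 and the Ndufs5-ps rows. These groups were not checked against the gene products. The remaining 9 promoters belong to tissue-limited isoforms: Cox6a2, Cox7a1 and Cox8b of heart and skeletal muscle, Cox6b2, Cox7b2 and Cox8c of testis, Cox4i2 of lung, and Ndufa4l2, a hypoxia-induced relative of Ndufa4. Cox6b2 has starts 192 bp apart. Ndufs5 and 1 of the 2 rows listed as Ndufs5-ps start 25 bp apart on chromosome 4 and share their promoter, so that they are not independent. Reads of Ndufs5 and its copy may be divided between these rows, and expression in fibroblasts is listed as 1.8e-05 for Ndufs5 and 21.9 for the Ndufs5-ps row on chromosome 16.

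Sequences of the 150 bases before the TSS, where the NDR is expected, are shown for pairs of isoforms that differ in occupancy below, for Ndufa8, which carries an NRF1 site, and for Ndufs1, whose window was occupied. They are from build mm9, each on the strand of the gene, and capitals mark the letters searched for Sp1 (GGGCGG), ETS factors (CCGGAAG) and the NRF1 core (GCATGCG) on either strand.
Cox4i1 (chr8:123192041-123192190, plus strand): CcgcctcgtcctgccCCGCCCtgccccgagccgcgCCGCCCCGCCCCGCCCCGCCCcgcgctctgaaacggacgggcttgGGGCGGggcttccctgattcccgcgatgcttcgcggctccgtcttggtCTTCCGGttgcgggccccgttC
Cox4i2 (chr2:152579760-152579909, plus strand): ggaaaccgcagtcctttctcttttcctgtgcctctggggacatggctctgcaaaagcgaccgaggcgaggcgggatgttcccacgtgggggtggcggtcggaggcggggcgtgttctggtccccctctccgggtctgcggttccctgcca
Cox6a1 (chr5:115798965-115799114, minus strand): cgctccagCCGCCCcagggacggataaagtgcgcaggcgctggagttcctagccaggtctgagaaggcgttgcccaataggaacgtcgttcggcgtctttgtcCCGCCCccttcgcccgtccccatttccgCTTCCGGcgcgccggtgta
Cox6a2 (chr7:135349881-135350030, minus strand): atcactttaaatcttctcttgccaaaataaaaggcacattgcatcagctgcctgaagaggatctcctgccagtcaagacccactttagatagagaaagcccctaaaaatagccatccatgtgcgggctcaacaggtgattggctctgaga
Ndufa8 (chr2:35904813-35904962, minus strand): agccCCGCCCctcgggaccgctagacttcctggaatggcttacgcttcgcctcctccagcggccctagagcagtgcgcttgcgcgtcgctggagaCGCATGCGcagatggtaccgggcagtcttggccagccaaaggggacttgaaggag
Ndufs1 (chr1:63223397-63223546, minus strand): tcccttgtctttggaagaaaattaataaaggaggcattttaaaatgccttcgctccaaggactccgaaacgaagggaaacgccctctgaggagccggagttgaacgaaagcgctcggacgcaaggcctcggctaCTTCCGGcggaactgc
The window of Cox4i1 holds 23 CpG dinucleotides and that of Cox4i2 holds 12. Cox6a1 has 18 CpGs in this window and Cox6a2 has 1. Neither Cox4i2 nor Cox6a2 holds any of the marked letters here.

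A CpG island, called from GC content and observed CpG within 200 bp of the TSS, was present at 63 of 79 promoters (79.7%, against 48.3% of all promoters and 83.7% of promoters active in both cell types). None of the 9 tissue-limited promoters had one. A TSS on the opposite strand lay upstream within 1000 bp of 24 of 79 promoters (30.4%, exact 95% interval 20.5 to 41.8%), compared with 9.15% of all promoters and 16.95% of those active in both. Ndufs1 has such a start of Eef1b2 10 bp away, Sdhd one of Timm8b 53 bp away and Sdha one of Ccdc127 78 bp away. With expression above 0.02 times the mean over genes taken as active, 72 of the 79 promoters were active in DCs and 66 in fibroblasts (all promoters: 48.1% and 40.2%).

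Letters of known regulators were searched on both strands from -250 to 50 bp of each TSS. The 9 letters GCGCATGCG for NRF1, which contain the core above, were found at 7 members (8.86%, against 2.07% of all promoters and 4.08% of those active in both), and the core alone at 11 (13.9%, 4.19% and 7.24%). The ETS letters were found at 16 (20.3%, 11.05% and 22.4%). The Sp1 letters were found at 35 (44.3%, 45.3% and 69.1%), CCAAT at 26 (32.9%, 37.8% and 38.2%) and the TATA box letters TATAAA at 7 (8.86%, 12.7% and 6.11%). The exact 95% interval of the members' share was 3.64 to 17.4% for the 9 NRF1 letters, which includes the share among promoters active in both cell types, and 33.1 to 55.9% for the Sp1 letters, which lies below that share. These differences were not tested, and the members include promoters that are not active in both.

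The letters AAGATGGCG, bound by YY1, were found at 8 members (10.1%, exact 95% interval 4.47 to 18.98%), compared with 1.92% of all promoters and 4.40% of those active in both. All 8 belong to complex I: they are 8 of the 48 promoters whose symbol begins with Nduf, which include Ndufa4l2 and the Ndufs5-ps rows, and 0 of the 31 other members. In each of the 8 the letters are on the strand of the gene and begin between 9 and 35 bp downstream of the TSS, with a median of 23.5 bp. Among all promoters, 510 hits were found, 267 of them (52.4%) from the TSS onwards, and 236 of these on the strand of the gene. Windows of 30 bases are shown for 6 of the 8, with the letters in capitals. All windows share these letters because they were searched for them.
Ndufs7 (chr10:79712208-79712237, plus strand): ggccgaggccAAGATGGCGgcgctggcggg
Ndufs4 (chr13:115178253-115178282, minus strand): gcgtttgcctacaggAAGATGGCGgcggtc
Ndufs6 (chr13:73465881-73465910, minus strand): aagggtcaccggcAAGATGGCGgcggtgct
Ndufa9 (chr6:126799114-126799143, minus strand): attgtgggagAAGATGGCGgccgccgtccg
Ndufc1 (chr3:51212836-51212865, minus strand): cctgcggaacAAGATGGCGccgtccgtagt
Ndufaf8 (chr11:119960248-119960277, plus strand): ggcagggcccAAGATGGCGgcgccctcgag
Ndufs7 encodes a core subunit, Ndufs4, Ndufs6, Ndufa9 and Ndufc1 encode accessory subunits, and Ndufaf8 is an assembly factor. A match is a description of these letters and does not show that a factor is bound. The letters contain ATG, and whether they overlap the start codon, which would also fix strand and position, was not examined.

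Occupancy in the deposited profiles is relative to the surroundings of each promoter, so that only the shape of a profile can be compared between promoters. In unstimulated DCs, the mean profile of the 58 high-coverage members without tissue-limited isoforms fell to 0.569 at -15 bp and rose to 3.56 at 125 bp, the position of the +1 nucleosome. The peak was thus 6.25 times the lowest value, compared with 2.75 times for other active promoters. After LPS the ratio of peak to lowest value was 8.36 for members and 2.77 for other active promoters. In fibroblasts it was 8.43 (others 3.49) before and 12.7 (others 3.91) after TNF-alpha. With pol-II S5P it was 27.6 (others 6.33), and with S7P it was 2.99 and 3.67 in the 2 replicates (others 2.25 and 2.37). A profile over 58 promoters is noisier than one over all active promoters, which raises its highest and lowers its lowest point, and the part of this in the ratios was not tested.

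**Figure D1:**
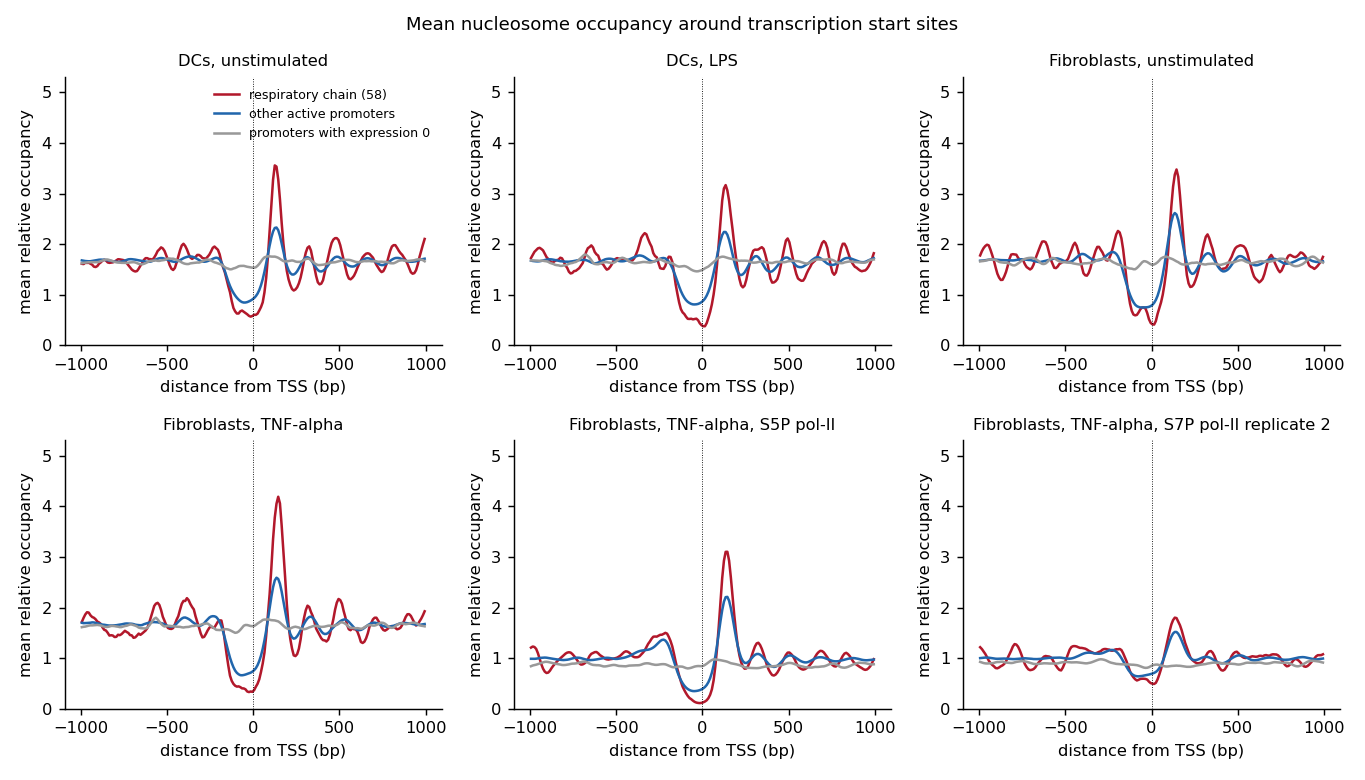
Mean relative occupancy (y axis, relative to the surrounding chromatin) against distance from the TSS in bp (x axis) in the 4 pooled H3K4me1 sets, the S5P library and S7P replicate 2. Red lines are the 58 respiratory chain promoters without tissue-limited isoforms, blue lines other active promoters and grey lines promoters with expression 0. The red line has a lower minimum than the blue one near the TSS and a higher +1 peak in all 6 panels, whereas the grey line is nearly flat.

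The median position of the first peak downstream of the TSS, estimated at individual promoters, was 120 bp in unstimulated DCs, 125 bp in LPS-treated DCs, 125 bp in unstimulated fibroblasts and 135 bp in TNF-alpha-treated fibroblasts (active promoters: 95, 105, 105 and 115 bp). This difference depends on the peaks that are counted. When the lowest 40% of peak prominences were left out in place of 20%, members had 125, 130, 125 and 135 bp and active promoters 115, 125, 125 and 125 bp, so that it was largely lost. The first peak upstream was at -130, -160, -150 and -205 bp. Mean occupancy from 80 to 180 bp was higher than that of the NDR window in 53 of 58 members in unstimulated DCs (91.4%, against 78.3% of promoters active in both cell types), in 51 of 58 in unstimulated fibroblasts (87.9%, against 79.1%) and in 54 of 58 in the S5P library (93.1%, against 87.5%).

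The depth of the NDR was measured at each promoter as a ratio, namely mean occupancy from -150 to 0 bp divided by mean occupancy from -1000 to -500 bp, so that a low ratio stands for a deep NDR. The median ratio of the 64 members was 0.302 in unstimulated DCs, 0.279 in LPS-treated DCs, 0.289 in unstimulated and 0.0923 in TNF-alpha-treated fibroblasts (pooled sets). All promoters had medians of 0.647, 0.615, 0.633 and 0.590 in these sets, and active promoters 0.489, 0.449, 0.395 and 0.282. In control fibroblasts the members' median was 0.628 and 0.193 in the 2 unstimulated replicates and 0.290 and 0.179 in the 2 stimulated ones. In BAF-knockdown cells it was 0.516 and 0.550 without and 0.229 and 0.249 with TNF-alpha. With pol-II S7P the replicates had 0.562 and 0.649, and the single S5P library had 0.145. The range between the 2 unstimulated control replicates covers all 4 values of the knock-down cells. The standard deviation (SD) of the log2 ratio between replicates of a group was 1.42 at members and 1.30 at all promoters.

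**Figure D2:**
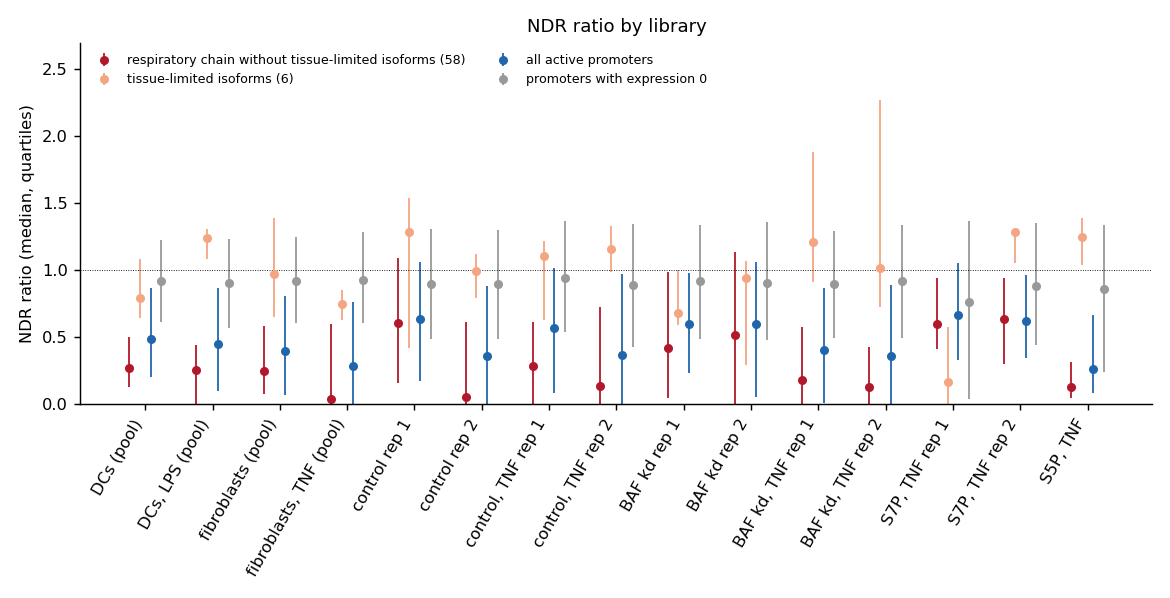
NDR ratio (y axis, occupancy upstream of the TSS over that of the distant flank) in each of the 15 libraries (x axis). Points are medians and bars quartiles of 58 respiratory chain promoters, 6 tissue-limited isoforms, all active promoters and promoters with expression 0, all with high coverage. The tissue-limited isoforms are above the other members in all libraries but S7P replicate 1, where their median was 0.167.

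Single promoters were compared between the 4 pooled sets, in which fewer 10 bp bins were empty. A ratio below 0.5 in all 4 sets was found at 25 of 64 members (39.1%, compared with 30.4% of promoters active in both cell types and 17.5% of all promoters). By the symbol groups given above, these were 12 of 28 accessory and 2 of 6 core subunits of complex I and 5 of 6 of its assembly factors. The other groups had 1 of 4 (complex II), 1 of 6 (complex III), 4 of 8 (broadly expressed complex IV) and 0 of 6 (tissue-limited). For the 58 members without tissue-limited isoforms, the median of each promoter's median over the 4 sets was 0.170, against 0.316 for promoters active in both. Members of any complex thus included deep NDRs, while members of different complexes overlapped widely.

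**Figure D3:**
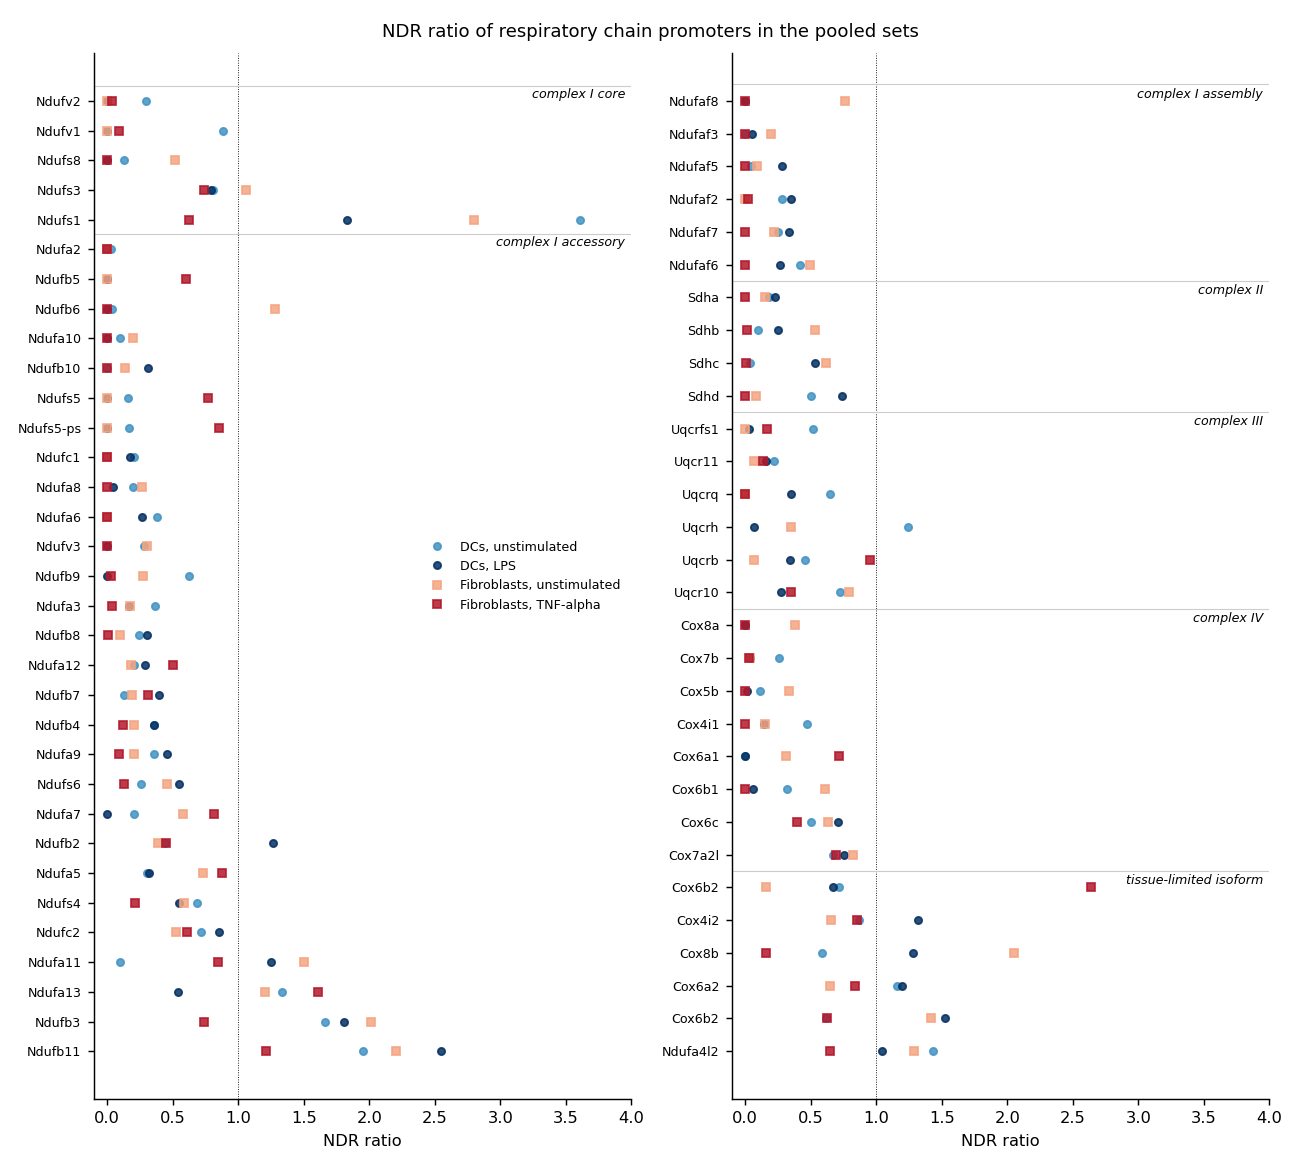
NDR ratio (x axis) of high-coverage respiratory chain promoters (y axis, grouped by complex, 1 of the 64 not shown) in the 4 pooled H3K4me1 sets, circles for DCs and squares for fibroblasts. A Uqcrh value is missing in TNF-alpha-treated fibroblasts because its flank was empty. Most promoters lie below 0.5, and Ndufs1, Ndufb3, Ndufb11, Ndufa13 and Ndufa4l2 reach beyond 1 in at least 3 of the 4 sets.

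Among the core subunits of complex I, which carry its redox centres, NDRs differed in depth. Values are given in the order unstimulated DCs, LPS-treated DCs, unstimulated fibroblasts and TNF-alpha-treated fibroblasts. Ndufv2 had ratios of 0.297, 0, 0 and 0.0358. A ratio of 0 means that no fragment was assigned to the window, not that nucleosomes are absent from all cells. Ndufs8 had 0.130, 0, 0.515 and 0, and Ndufv1, the NADH-binding subunit, had 0.882, 0, 0 and 0.0890. Ndufs3 stayed close to the level of its flank in all 4 sets, at 0.806, 0.792, 1.06 and 0.737. Ndufs7 had 0.410, 0.459, 0.422 and 0, at a coverage score of only 59.75. Ndufs1, the largest core subunit, was the least depleted member in both unstimulated sets, with ratios of 3.61, 1.83, 2.80 and 0.625. In LPS-treated DCs Ndufb11 was higher, and in TNF-alpha-treated fibroblasts several members were. Single H3K4me1 libraries gave a median of 1.78 for Ndufs1 over 8 libraries, from 0 to 3.34, and the pol-II libraries gave 1.14, 2.15 and 2.31. In each of the 4 pooled sets the deepest 150 bp window of Ndufs1 was centred between -325 and -235 bp, where the ratio was 0.0504 at most. Eef1b2, which is transcribed in the opposite direction, starts 10 bp upstream of Ndufs1, so both windows lie almost entirely downstream of the Eef1b2 start.

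A similar arrangement was seen at the accessory subunit Ndufb3, whose ratios were 1.66, 1.80, 2.01 and 0.736 and whose deepest window lay between -345 and -255 bp with a ratio of 0 in all 4 sets. The opposite start of Fam126b lies 267 bp upstream of it. The RefSeq start of Ndufb3 lies 216 bp from the nearest start in the Ensembl annotation of the same build. Ndufb11, on the X chromosome, had 1.95, 2.55, 2.21 and 1.21 in the pooled sets. In 6 of 8 single H3K4me1 libraries, however, Ndufb11 was below 1 (median 0, highest 3.33), so the pooled and single libraries of fibroblasts did not give the same picture. The reverse was true of Uqcr10, a small subunit of complex III, with 0.727, 0.274, 0.789 and 0.352 in the pooled sets and more than 1 in all 8 single libraries (1.31 to 2.24). Ndufa13, which is also known as the cell death regulator GRIM-19, had 1.33, 0.540, 1.2005 and 1.605.

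Of the assembly factors of complex I, which act while the enzyme is built and then leave it, Ndufaf3 had ratios of 0, 0.0490, 0.200 and 0, Ndufaf5 0.0459, 0.284, 0.0942 and 0, and Ndufaf7 0.249, 0.336, 0.224 and 0. In the pooled sets only Ndufaf8 left the range below 0.5, at 0, 0, 0.758 and 0. All 6 were below 0.5 in the pooled set of TNF-alpha-treated fibroblasts. The 8 single H3K4me1 libraries differed from this for Ndufaf2 (median 0.931, 0 to 1.88) and Ndufaf8 (median 1.30, 0 to 2.08). Medians there were 0.0937 for Ndufaf3, 0.191 for Ndufaf5, 0.402 for Ndufaf6 and 0.111 for Ndufaf7.

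Complex II, the succinate dehydrogenase, links the citric acid cycle to the chain and is the one complex encoded entirely in the nucleus. Its flavoprotein subunit Sdha had ratios of 0.179, 0.227, 0.152 and 0, and its iron-sulfur subunit Sdhb had 0.101, 0.249, 0.530 and 0.0111. The membrane anchors Sdhc and Sdhd had 0.0357, 0.533, 0.614 and 0.00899, and 0.505, 0.741, 0.0830 and 0, respectively. All 4 were at or near 0 in TNF-alpha-treated fibroblasts. In the 8 single libraries Sdha was at 0.0300 in the median (0 to 2.57), Sdhb at 0.0689 (0 to 1.58), Sdhc at 0.327 (0 to 0.614) and Sdhd at 0 (0 to 0.709). Each of the 4 was at 0 in at least 3 single libraries, and control and knock-down libraries overlapped for all of them.

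The lowest ratios in unstimulated DCs were those of 6 members at 0, among them Cox6a1, Cox8a and Ndufaf3, and in unstimulated fibroblasts 12 members were at 0, among them Ndufa2, Ndufa6 and Ndufaf2. The highest were Ndufs1, Ndufb11 (1.95) and Ndufb3 (1.66) in DCs, and Ndufs1, Ndufb11 (2.21) and Cox8b (2.05) in fibroblasts. Across the 64 members, Spearman's rho between unstimulated and LPS-treated DCs was 0.601, and between unstimulated DCs and fibroblasts 0.325. Replicates of single libraries gave 0.121 to 0.286 for H3K4me1 and 0.163 for S7P, which describes how little of the difference between members repeats in single libraries. The 15 members of low coverage had median ratios of 0.410 in unstimulated DCs and 0.306 in unstimulated fibroblasts.

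Isoform pairs offer a comparison of relatives within the same library, as one gene of each pair is used broadly and the other in few tissues. The tissue-limited gene was listed with expression 0 in both cell types for Cox4i2, Cox7b2, Cox8c and the downstream start of Cox6b2. Cox6a2 and Cox8b were at 0 in DCs and at 0.276 and 0.485 in fibroblasts, and Cox7a1 was expressed at 0.728 in DCs and 1.22 in fibroblasts. Ndufa4l2 was at 0.0417 and 0.0287, and the upstream start of Cox6b2 at 0.0982 and 0. The broadly expressed partners were at 8.29 to 43.6 in DCs and 42.9 to 328 in fibroblasts, so that low expression goes together with the isoform class in all pairs. Ratios of the pooled sets are given in the same order as above.

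Cox4i1 had ratios of 0.469, 0.142, 0.154 and 0, while Cox4i2 had 0.868, 1.32, 0.651 and 0.857. The tissue-limited promoter was thus the more occupied one in all 4 sets, and it was so in 11 of the 15 libraries, with a median difference of 2.595 in log2 ratio (-2.57 to 4.27). Cox6a1 had 0, 0, 0.312 and 0.713, and Cox6a2 had 1.16, 1.198, 0.648 and 0.840. Cox6a2 was higher in 13 of 15 libraries, by 3.40 in the median (-2.11 to 4.95). In the 8 single H3K4me1 libraries, Cox6a1 was at 0 to 0.669 with a median of 0, and Cox6a2 at 0 to 2.27 with a median of 0.980. Both ranges start at 0 and overlap, while 6 of the 8 Cox6a2 values exceed the highest Cox6a1 value.

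Cox6b1 had 0.317, 0.0574, 0.609 and 0. At the upstream start of Cox6b2 the ratios were 0.620, 1.52, 1.42 and 0.622, higher than those of Cox6b1 in 13 of 15 libraries (median 2.75, -2.16 to 4.76), and at its downstream start 0.713, 0.668, 0.162 and 2.64, higher in 11 of 15 (median 2.01, -1.55 to 5.37). Both starts share most of their flanks and are not independent. Cox8a had 0, 0, 0.382 and 0 and Cox8b had 0.585, 1.28, 2.05 and 0.161. Cox8b was higher in 13 of 15 libraries, with a median difference of 1.91 (-4.80 to 4.42). Cox8c had 0.843, 1.34, 0.724 and 0.457 at a coverage score of 17.5, and was higher than Cox8a in 12 libraries (median 1.05, -2.36 to 3.92).

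Cox7b had 0.258, 0.0344, 0.0378 and 0.0288, and Cox7b2, at a coverage score of only 3.75, had 0, 3.33, 1.31 and 1.46. Cox7b2 was higher in 11 of 15 libraries (median 2.94, -2.20 to 4.82). Ndufa4, at a coverage score of 74.25, had 0.542, 0.283, 0.376 and 0.00951 and Ndufa4l2 had 1.44, 1.04, 1.29 and 0.648. Ndufa4l2 was higher in 12 of 15 libraries (median 1.27, -2.64 to 3.81), or in 9 when flanks on both sides were used. The Cox7a pair, with coverage scores of 96.5 for Cox7a2 and 79.25 for Cox7a1, had the smallest median difference. Cox7a2 had 0.348, 0.750, 0.202 and 0.658 and Cox7a1 had 0.181, 0.0972, 0.544 and 0.913, and Cox7a1 was higher in 11 of 15 libraries by 0.94 in the median (-2.07 to 4.26). In DCs, Cox7a1 was the lower of both. Promoters with expression 0 had median ratios near the level of their flank in all libraries, as the plot by library shows. Members without a CpG island but outside the tissue-limited group had a median of 0.705 in unstimulated DCs (with an island 0.247). That group holds only Cox6c, Cox7b, Ndufb3, Ndufb11, Ndufs4 and Uqcr10, of which Ndufb11 and Uqcr10 differed between pooled and single libraries.

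**Figure D4:**
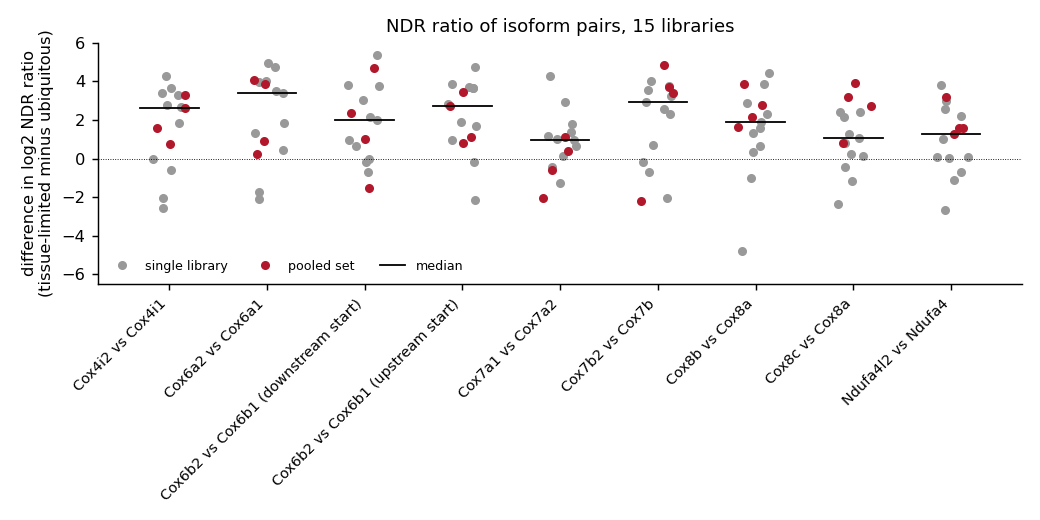
Difference in log2 NDR ratio (y axis, tissue-limited minus broadly expressed gene) for 9 comparisons of isoforms (x axis) in the 15 libraries. Red points are the 4 pooled sets, grey points the 11 single libraries and lines the medians. All medians are above 0, from 0.94 for Cox7a1 to 3.40 for Cox6a2, and every comparison has libraries below 0.

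Members with an opposite TSS at most 100 bp upstream (9 promoters, among them Sdha, Sdhd and Ndufs1) had a median ratio of 0.456 in unstimulated DCs and 0.0276 in TNF-alpha-treated fibroblasts. Those without an opposite TSS within 1000 bp (35 promoters) had 0.258 and 0.0404, and the 14 with one at a distance between these limits had 0.244 and 0.0221. Promoters active in both cell types had 0.361 and 0.0896 with a close opposite TSS, 0.313 and 0 with a more distant one and 0.436 and 0.283 without. In unstimulated DCs the close group was thus the highest among members and lay between the others among active promoters. The mean profile of the close pairs had its highest upstream peak at -215 bp in unstimulated DCs (3.27) and at -195 bp in unstimulated fibroblasts (3.79).

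Stimulation was described first in the pooled sets, in which the spread between replicates cannot be estimated. After LPS, the log2 ratio of 38 of 64 members was lower and that of 26 was higher than in unstimulated DCs, with a median change of -0.16 (all promoters -0.07). The changes largest in size were those of Ndufv1 (0.882 to 0, -3.49), Uqcrh, the hinge protein of complex III (1.24 to 0.0696, -3.32), and Ndufb9 (0.624 to 0, -2.75). After TNF-alpha, 40 of 64 members were lower, with a median change of -0.58 (all promoters -0.09). Changes largest in size in fibroblasts were those of Ndufb6 (1.28 to 0, -3.55), the downstream start of Cox6b2 (0.162 to 2.64, 3.51) and Ndufaf8 (0.758 to 0, -3.31). Where a ratio goes to 0, the log2 change and its rank depend on the occupancy added before taking logs, and are no measure of a fold. The share of bins with any fragment at members moved with this, from 91.4 to 86.7% in DCs and from 86.1 to 77.9% in fibroblasts, and its part in the change was not tested.

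The single libraries of fibroblasts allowed tests with replicates. Log2 NDR ratios of the 8 control and BAF-knockdown libraries were fitted with limma for all 13309 promoters of high coverage that had a value, with TNF-alpha and knock-down as terms and Benjamini-Hochberg adjustment at 0.05. For TNF-alpha against none, 0 of 64 members and 0% of all promoters passed (smallest adjusted p among members 0.786), and 5 members had an unadjusted p under 0.05 (5.5% of all promoters), 3 of them lower (3.9% of all promoters) and 2 higher (1.6%). The fitted difference was negative for 46 of 64 members, with a median of -0.38, whereas it was negative for 55.2% of all promoters, with a median of -0.09. The members' median was -0.24 without unstimulated control replicate 1 and -0.78 without unstimulated control replicate 2. With replicate 1 of all groups left out, members and all promoters had the same median of -0.07, so that the difference between them rests on these libraries. Cox4i1 had the smallest p. Its ratios were 1.25 and 0 in unstimulated and 0 and 0 in stimulated control cells, and 0.894 and 0.988 in unstimulated and 0 and 0 in stimulated knock-down cells. In limma, the fitted difference was -2.63 (SE 0.85, adjusted p = 0.786), so Cox4i1 was not called, although 3 of its 4 unstimulated and none of its stimulated libraries were above 0. Cox6a1 (-1.71) and Ndufaf7 (1.81) followed and were not called.

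Whether the loss of the BAF ATPases changes these promoters was asked of the same libraries. For knock-down against control, 0 of 64 members and 0% of all promoters passed the test of NDR depth (smallest adjusted p 0.969), and 1 member had an unadjusted p under 0.05 (4.85% of all promoters), which was lower (2.37% of all promoters), against 0 higher (2.49%). The median difference of members was 0.10 (all promoters 0.01), and 30 of 64 were lower. This median has no stable direction, as it was -0.25 without unstimulated control replicate 2, and -0.09 without replicate 1 of either unstimulated or stimulated knock-down cells. The deposited names of both knock-down replicate 1 libraries carry a tag that differs from the tag shared by the other 6 libraries, and its meaning is not given in the sources used here. Without replicate 1, where all libraries share the tag, 0 members were called and the median was 0.10 (all promoters 0.09). Ndufb9, an accessory subunit of complex I, had ratios of 0.626 and 1.49 in unstimulated and 0.428 and 0.154 in stimulated control cells, and of 0.321 and 0 in unstimulated and 0 and 0.277 in stimulated knock-down cells. Knock-down values reached from 0 to 0.321 and control values from 0.154 to 1.49, which overlap, and the difference fitted by limma of -1.73 (SE 0.75, adjusted p = 0.969) was not called. Ndufa13 (1.90) and Ndufv3 (1.37) had the next smallest p and were not called.

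The patterning level, which scores how well a whole profile follows the mean profile of active promoters, also gave 0 called members and 0% of all promoters for the knock-down (2 members and 5.18% of promoters at an unadjusted p under 0.05, with 1 lower against 2.49% and 1 higher against 2.69%). The members with the smallest p were Ndufaf5 (8.47), Ndufv1 (-8.36) and Ndufv3 (-5.32), none of them called (smallest adjusted p 0.939). For TNF-alpha, 0 members and 0% of promoters were called by patterning, and 6 members (4.75% of promoters) had an unadjusted p under 0.05 (2 lower against 1.77%, 4 higher against 2.98%), led by Ndufa3 (-8.76), Ndufaf6 (10.2) and Ndufv1 (10.2). The median patterning level of members was 14.9, 14.4, 14.2 and 17.6 in the pooled sets (all promoters 5.59, 5.90, 5.74 and 6.12), 4.04 to 8.12 in the 8 single H3K4me1 libraries (all promoters 1.98 to 2.77) and 13.6 in the S5P library (all promoters 5.78). Most members are active and were part of the mean profile, while all promoters include many that are not active. A higher level of members thus goes with how the score is built, and active promoters are not set beside them here.

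Whether TNF-alpha acts differently in knock-down and control cells was tested by the interaction, for which 0 of 64 members and 0% of promoters were called (6 members and 5.67% of promoters at an unadjusted p under 0.05, with 4 lower against 3.91% and 2 higher against 1.76%, smallest adjusted p 0.604). The smallest p belonged to Ndufb6, with ratios of 0.630 and 1.35 falling to 0 and 0 in control cells and of 0 and 0 going to 0.136 and 0.0167 in knock-down cells. Its interaction term in limma of 4.16 (SE 1.12, adjusted p = 0.604) was not called. Ndufs6 (3.70) and Ndufa7 (-3.88) followed. Standard errors of the members named for these NDR comparisons were 0.67 to 1.39 in log2 ratio, so that differences of this size at 1 promoter were not detectable.

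DCs and fibroblasts were compared over the 4 pooled sets, with stimulation as a second term. Again 0 of 64 members and 0% of 13559 promoters were called by limma (smallest adjusted p 0.639), and 7 members had an unadjusted p under 0.05 (6.97% of promoters), 2 of them lower in DCs (2.29%) and 5 higher (4.68%). The median difference, DCs minus fibroblasts, was 0.37 for members and 0.08 for all promoters. Its direction rests on the TNF-alpha-treated fibroblast set, without which the members' median was -0.04, and it was 0.15 without unstimulated DCs, 0.22 without LPS-treated DCs and 0.64 without unstimulated fibroblasts. Uqcrq, a small subunit of complex III, had ratios of 0.644 and 0.350 in DCs and of 0 and 0 in fibroblasts (limma difference 2.69, SE 0.58, adjusted p = 0.639). Cox6a1 was the reverse, with 0 and 0 in DCs and 0.312 and 0.713 in fibroblasts (-2.79), and Sdhd had a difference of 2.26. Uqcrq, Cox6a1 and Sdhd were named for the smallest p, so that separate values of the 2 cell types in these 4 sets go with that choice. The share of all promoters with separate values was not counted, and none of these genes was called. In the 8 single H3K4me1 libraries of control and knock-down fibroblasts, Uqcrq ranged from 0 to 1.26 (median 1.05). Cox6a1 ranged there from 0 to 0.669 (median 0) and Sdhd from 0 to 0.709 (median 0). These ranges all overlap the DC values of the same gene. DCs and fibroblasts also received different stimuli, which cannot be told apart from cell type in the stimulated sets.

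Pol-II libraries enrich for chromatin bound by the polymerase. For pol-II (S7P and S5P, 3 libraries) against H3K4me1 (2 control libraries) in TNF-alpha-stimulated fibroblasts, limma called 0 of 64 members and 0% of 13319 promoters (smallest adjusted p 0.471), and 5 members had an unadjusted p under 0.05 (7.17% of promoters), 2 lower with pol-II (2.34%) and 3 higher (4.83%). The median difference was 0.60 for members and 0.07 for all promoters, and 1.10 and 0.20 when the S5P library was left out, where 13 members and 1302 of 13336 promoters had an unadjusted p under 0.05 and 0 were called (10 members and 1093 promoters with the replicate block). The members' median was 0.36 without S7P replicate 2 and 0.37 without control replicate 2. Ndufc2 had ratios of 0.516, 1.01 and 0.745 with pol-II and 0.00457 and 0 with H3K4me1 (limma difference 2.97, SE 0.71, adjusted p = 0.471). Cox8a (-2.95) was at 0.00328, 0.272 and 0.151 against 2.48 and 0.822, and Cox7a2l (-2.21) at 0.325, 0.414 and 0.220 against 2.20 and 1.48. Ndufc2, Cox8a and Cox7a2l were named for the smallest p, so that groups without overlap go with that choice. The share of all promoters without overlap was not counted, and none of these genes was called. Pol-II libraries have paired-end and H3K4me1 libraries single-end reads, so that antibody and sequencing cannot be told apart. Among the pol-II libraries, the members' median ratio was lowest with S5P, a mark of initiating polymerase (0.145, against 0.562 and 0.649 with S7P), a difference that was not tested because 1 S5P library was analysed here. S5P replicates are listed in the plural in the study's methods, and whether the deposited S5P library pools them is not given in the sources used here.

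**Figure D5:**
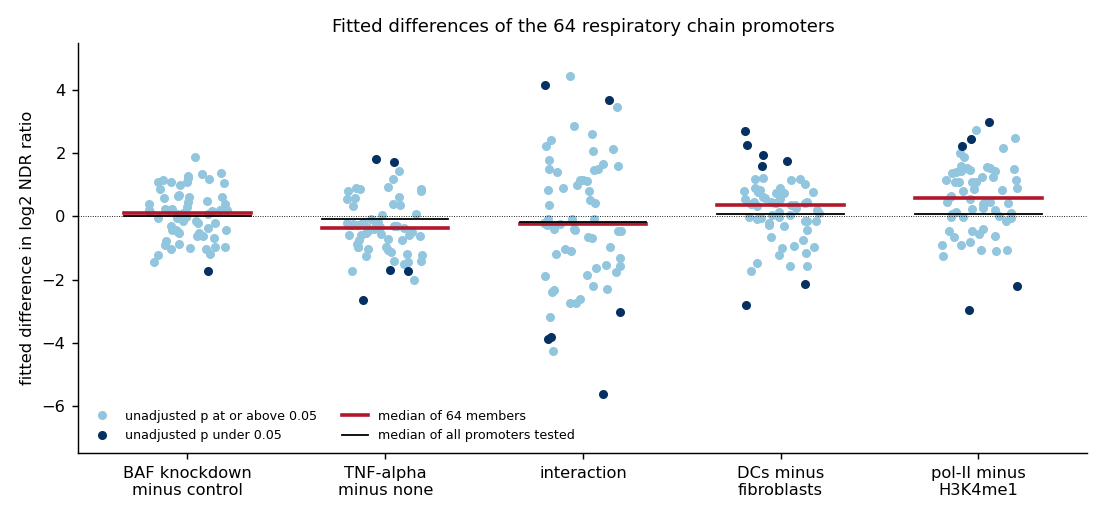
Fitted difference in log2 NDR ratio (y axis) of the 64 members in 5 comparisons (x axis), with dark points for an unadjusted limma p under 0.05. Red lines are medians of the members and black lines medians of all promoters tested. Members scatter to both sides of 0 in each comparison and 0 were called after adjustment.

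For the other genes of the pathway, of 14 promoters of ATP synthase subunits, 2 of cytochrome c and cytochrome c1, 9 of oxidase assembly factors and 8 of regulators such as Nrf1, Gabpa and Tfam, 0 were called in either direction in any of the 7 comparisons by limma, and at most 2 per list had an unadjusted p under 0.05 in any of them. A count of 2 occurred only among the 9 oxidase assembly promoters. It was found for the knock-down (NDR depth and patterning), cell type and pol-II tests (4.85, 5.18, 6.97 and 7.17% of all promoters). For NDR depth upon knock-down, 1 of the 2 cytochrome c promoters also had such a p, while upon TNF-alpha 0 in any list did (5.5% of all promoters). Whether these counts differ from the shares was not tested. The median difference upon TNF-alpha was -0.38 for ATP synthase and 0.05 for the regulators. P-values of the tests on control and knock-down libraries measure the spread between these libraries, which the study describes as biological replicates. In the test of DCs against fibroblasts they measure the spread between pooled sets of different states, not between cultures. In the pol-II test the spread includes that between S7P and S5P libraries.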

How the data were processed

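ChIP-MNase data of 15 libraries were used as deposited. Per the study's methods the authors mapped reads to mm9, counted fragments in 10 bp bins relative to the surrounding region and smoothed them, so that the deposited occupancies are a signal without read counts (200 bins per promoter, -1000 to 1000 bp). Per the labels, processing used Bowtie2 and bedtools. Depth per library is unknown, and the percentage of filled bins (61.9 to 91.4% at members) was used in its place. Empty bins were read as 0. The authors' coverage score per promoter is a mean number of fragments over unstimulated sets, and a score above 100 was required. Active promoters follow the study's expression limit, but inducible promoters were not taken out. The deposited expression columns (other units, not stated in the file) were used within a column only, apart from marker genes and isoforms, listed for both cell types. The columns differ in scale, and the study's methods name public datasets for expression in both cell types. Of the deposited columns, 2 hold the authors' expression differences upon stimulation and were not used. Brg1 and Brm mRNA was not measured in these files, so the knock-down itself is not checked here.

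Symbols of 24920 of 25881 RefSeq identifiers were found in a RefSeq gene table of a later assembly, used for names only. Sequences and motif positions are from the mm9 genome. For tests, the log2 NDR ratio was calculated after adding 0.1 times the library's mean occupancy to window and flank, and patterning levels are the product of each centred profile with the centred mean profile of active promoters. limma (version 3.58.1, R 4.3.3) was fitted over all promoters of high coverage, two-sided. Python 3.11.15 with numpy 2.4.6, pandas 2.3.3, scipy 1.17.1 and matplotlib 3.10.9 was used for the remainder. Nucleosome positions left out the lowest 20% of peak prominences. Fits were tested on simulated data.

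Replicate numbers were not used as a block in the tests. Correlations of replicate differences between groups were -0.00879 to 0.0221, so that the numbers do not pair the libraries. Alternatives were the pseudocount, the square root, division by mean occupancy, the coverage limit, flanks on both sides, the replicate block and leaving out single libraries. Genes were named by rule: isoform pairs, complex I core and complex II genes, the 3 lowest and 3 highest ratios per cell type, the 3 largest changes upon stimulation, and the 3 smallest p per comparison. Uqcr10 and the sequences shown were chosen after their values were seen. Values of 1 member named by this rule are not reported here, while counts and medians include it. The members and the lists were chosen with earlier results of these data known.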

Additional observations from a re-analysis of the deposited data

How the results depend on the processing

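All 7 tests gave 0 called members in each of 93 alternative settings, with 0 to 13 members at an unadjusted p under 0.05. With the replicate block 0 members were called in every comparison in which it could be fitted, and leaving out any single library gave 0 to 0. The interaction without replicate 1 or replicate 2 could not be fitted because no residual degrees of freedom remained. The replicate numbers did not pair the libraries, so the block is a formal alternative only.

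Of 263 recalculated values, 232 kept their level and 31 moved. The 232 include the 93 counts of called members, which were 0 in every setting, as were the calls among all promoters. For medians, a change smaller than the SD between replicates, or for positions between pooled sets, counted as kept. The median NDR ratio in the S5P library was 0.314 with the square root of occupancy. Median patterning levels depend on the scale. With the square root they were 9.72, 10.3, 9.01 and 11.7 in the pooled sets (DCs, LPS, fibroblasts, TNF-alpha), 6.27 and 5.95 in replicate 2 of stimulated control and knock-down cells, 2.94 and 3.81 for S7P and 9.02 for S5P. After division by mean occupancy they were 9.20, 8.90, 8.71 and 10.9 in the pooled sets, 5.92, 8.29, 9.39 and 10.2 in control and 5.29, 5.03, 8.79 and 9.18 in knock-down libraries. With members of any score they were 6.65 in stimulated knock-down replicate 2 and 5.48 in S7P replicate 2. When the lowest 40% of prominences were left out, the +1 position of all 64 members was 125 bp in both DC sets (115 and 120 bp otherwise) and 135 bp in TNF-alpha-treated fibroblasts, and the -1 position was -185 bp in both DC sets and -180 bp in unstimulated fibroblasts. With any score the +1 position was 115 bp in LPS-treated DCs. The cause was not tested.

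Occupancies without read counts give no counting error for single promoters, and single libraries leave many bins empty, so values of 1 promoter in 1 library are imprecise. In the 4 pooled sets the spread between replicates cannot be estimated, and 1 S5P library was analysed.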
